A study of Homo sapiens with 6 samples.

Results

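Notch signalling was described through 10 genes, chosen by name from the 18268 rows of a gene expression table. They are the receptors NOTCH1, NOTCH2 and NOTCH3, the ligands JAG1, JAG2 and DLL1, the DNA-binding factor RBPJ, and the target genes HES1, HES4 and HEY1. A row was taken where its gene name was that of the gene or joined it to others, and all 10 genes had 1 row. JAG2 shares its row with its neighbour NUDT14, so a value of that row cannot be assigned to either gene alone. The RNA came from MIA PaCa-2, an established human pancreatic carcinoma line, grown in medium with 10% fetal bovine serum and 2.5% horse serum. It was sequenced in 3 libraries of cells with the empty pCDH vector and 3 libraries of cells overexpressing LINC00901, a long noncoding RNA. Nothing in the labels says that the replicates of a group were grown apart. The p-values below therefore reflect the spread between these libraries alone, which may be technical. No row names LINC00901, so its level was not analysed here and the groups are as labelled.

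Notch receptors are single-pass membrane proteins that are switched on by ligands of the Jagged and Delta-like families on neighbouring cells. Ligand binding leads to cleavage by an ADAM protease and then by gamma-secretase, and the freed intracellular domain joins RBPJ and a Mastermind coactivator on DNA. HES and HEY genes, which encode repressors of the basic helix-loop-helix class, are the best known targets of that complex. In the pancreas the pathway holds progenitor cells back from differentiation, and it is active again in duct-like lesions.

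Values are FPKM, fragments scaled by gene length and by the number of mapped fragments, so levels of different genes can be set side by side within a library. Their depth is unknown. FPKM summed to 87162 to 88738 in the vector libraries and to 127768 to 128538 in the overexpression libraries. Rows whose average over all libraries reached 1 FPKM, 9694 in number, were tested with limma on log2(FPKM + 0.5), a scale that understates the change of low genes, with Benjamini-Hochberg adjustment over all of them and a threshold of 0.05. The median tested row was higher by 0.27 log2 (1.20-fold) in the overexpression libraries, and changes relative to that row are given beside the unscaled ones. The epithelial markers did not move together. KRT18 (90.93 to 105.38 FPKM with the vector, 62.48 to 86.92 FPKM with overexpression, limma adjusted p = 0.0219) and the joined row KRT8;KRT78 (19.70 to 27.76 and 14.82 to 16.56 FPKM, 0.00960) were called lower. KRT19 was called higher (2.22 to 5.92 and 22.89 to 25.02 FPKM, limma adjusted p = 0.000654), KRT7 did not exceed 1.03 FPKM, and EPCAM and CDH1 did not exceed 0.14 and 0.08 FPKM. Summed over 5 genes, endothelial markers reached 0.14 to 0.28 FPKM in the vector and 0.48 to 0.64 FPKM in the overexpression libraries, with KDR and TEK at 0 throughout. The 5 fibroblast markers summed to 18.42 to 19.49 and 12.11 to 18.11 FPKM, mostly from COL1A2, with DCN at or near 0. Of these, COL1A2 was called lower (18.1 ± 0.465 and 13.1 ± 2.69 FPKM, SD, n = 3, limma adjusted p = 0.0339) and COL1A1 higher (0.583 ± 0.297 and 1.67 ± 0.280 FPKM, SD, n = 3, limma adjusted p = 0.00913). COL1A1 passed the filter only through its overexpression values. Of the leukocyte markers PTPRC and CD3E were listed at 0 in all libraries and CD14 at 0 to 0.48 and 0.62 to 1.37 FPKM, while CD68 has only a joined row. What part these markers had in the results below was not tested.

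HES1 and RBPJ were higher in the overexpression libraries, while no receptor or ligand of the set passed the test on the unscaled values. In bulk RNA, more cells expressing a gene and more RNA of it per cell cannot be told apart. HES1 stood 8.54-fold and RBPJ 2.92-fold higher by the ratio of mean FPKM (n = 3 in each group). Of the 10 genes 8 were high enough to be tested, and 2 of the 8 (25%) were called higher and 0 lower. Over all tested rows 49.2% were called in either direction, 37.4% higher and 11.9% lower, so the genes described here were not called more often than the rest. The median log2 difference was -0.01 over the 8 genes and 0.27 over all tested rows. In 4 of the 8 genes the groups did not overlap, HES1 and RBPJ higher and JAG1 and the row of JAG2 lower, as in 60.6% of all rows (44.9% higher, 15.6% lower). DLL1 and HEY1 lay below the filter.

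How many genes were called lower depended on the scaling, while HES1 and RBPJ were called higher under each. With every library centred on its median, 3 of the 8 were called lower (NOTCH2, JAG1 and the row of JAG2), where 43.3% of all rows were called, 24.0% higher and 19.2% lower. Quantile normalization called the same 3 lower, where 40.1% of rows were called, 19.2% higher and 20.9% lower. After removal of what length and GC content explained, 2 of 7 were called lower (NOTCH3 and JAG1), where 39.6% of rows were called, 22.5% higher and 17.1% lower.

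**Figure D1:**
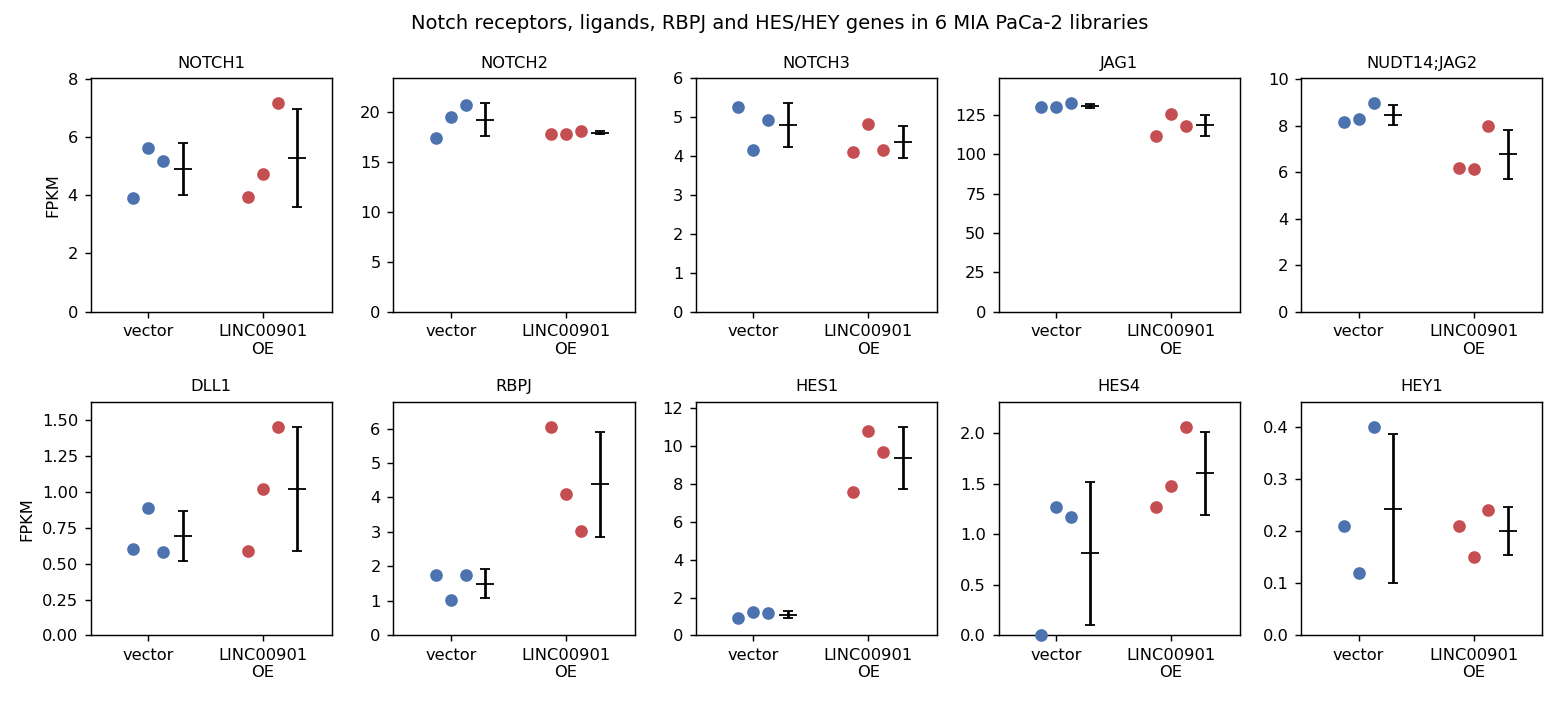
FPKM of the 10 genes in each library, with vector libraries in blue and LINC00901 overexpression libraries in red, each panel on its own linear axis from 0; bars give mean and SD (n = 3). HES1 and RBPJ are higher in every overexpression library than in any vector library, while JAG1 and the joined row NUDT14;JAG2 are lower in each of them.

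JAG1 was by far the most abundant of the 10 genes in both groups. In the vector libraries the order by mean level was JAG1 (131 FPKM), NOTCH2 (19.2), the row of JAG2 (8.48), NOTCH1 (4.90), NOTCH3 (4.79), RBPJ (1.5), HES1 (1.10), HES4 (listed at 0 in 1 library), DLL1 (0.690) and HEY1 (0.243). The neighbours NOTCH1 and NOTCH3, and those from RBPJ down to DLL1, had ranges that overlapped. In the overexpression libraries HES1 moved from the seventh to the third place. There JAG1 and NOTCH2 still stood apart from the others, whereas neighbours from HES1 down to NOTCH3 overlapped in their ranges.

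None of the receptors NOTCH1, NOTCH2 and NOTCH3 passed the test on the unscaled values, and their groups overlapped. NOTCH2, the receptor with the highest FPKM in both groups, measured 17.38, 19.49 and 20.62 FPKM in the vector libraries and 17.78, 17.79 and 18.08 FPKM in the overexpression libraries. The overexpression values were close to each other and lay inside the vector range. On the log2 scale the difference was -0.09 (95% interval -0.30 to 0.12, limma adjusted p = 0.409). NOTCH1 measured 3.91, 5.62 and 5.17 FPKM in the vector libraries, against 3.94, 4.72 and 7.15 FPKM. Its groups overlapped over most of their range, with a log2 difference of 0.07 (95% interval -0.47 to 0.61, limma adjusted p = 0.814). NOTCH3, which is itself a Notch target in several tissues, measured 5.27, 4.17 and 4.94 FPKM, against 4.11, 4.83 and 4.16 FPKM. Its log2 difference was -0.12 (95% interval -0.42 to 0.18, limma adjusted p = 0.458).

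NOTCH2 made up 66.1% ± 0.902 (SD, n = 3) of the summed receptor FPKM in the vector libraries and 63.7% ± 3.77 (SD, n = 3) in the overexpression libraries. NOTCH1 held 16.9% ± 2.24 and 18.5% ± 4.64, and NOTCH3 16.7% ± 2.83 and 15.6% ± 1.69 (SD, n = 3). The sum, which includes the joined row of NOTCH4, was 29 ± 2.10 FPKM with the vector and 28.1 ± 1.89 FPKM with overexpression (SD, n = 3). NOTCH4, the receptor of endothelium, has a row only joined with its neighbour GPSM3, at 0.1 ± 0.0173 and 0.617 ± 0.147 FPKM (SD, n = 3). That row lay below the filter and was higher in every overexpression library than in any vector library, as were 12.2% of rows below the filter with a value above 0. In the fit with no filter, where 25.7% of rows were called higher, its limma adjusted p was 0.00234.

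The signs and calls of the receptors depended on the scaling. With each library centred on its median, NOTCH2 was called lower at -0.30 log2 (limma adjusted p = 0.0280), and with quantile normalization at -0.55 (0.00449). With the length and GC correction it was -0.10 and not called (0.357), whereas NOTCH3 was then called lower at -0.38 (0.0306). The NOTCH1 difference was -0.14, -0.14 and -0.17 log2 under these settings and was called in none of them. Reads of NOTCH2 can be shared with its partial copies, of which GENCODE 29 lists NOTCH2NLA and a pseudogene, so its level is uncertain to that extent. The joined row NOTCH2NLA;NBPF10, named after its values were seen, fell from 4.34 ± 0.166 to 1.47 ± 0.365 FPKM (SD, n = 3), with a log2 difference of -1.32 (limma adjusted p = 0.000805).

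**Figure D2:**
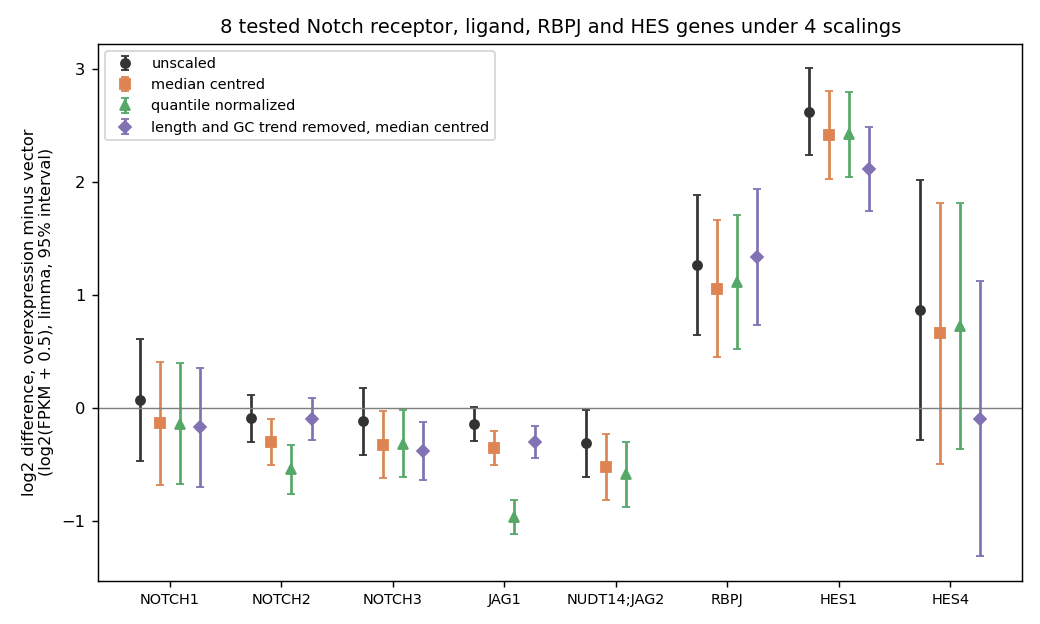
Log2 difference between overexpression and vector libraries with its 95% limma interval for the 8 tested genes, unscaled and under 3 other scalings. HES1 and RBPJ stay above 0 in each, JAG1 lies below 0 in each with its unscaled interval reaching 0, and the joined row NUDT14;JAG2 has no value with the length and GC correction.

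Among the ligands, JAG1 ranked 40th of all 18268 rows by its mean in the vector libraries and 124th in the overexpression libraries. It measured 129.95, 130.08 and 132.33 FPKM with the vector and 111.41, 125.35 and 118.20 FPKM with overexpression. Each overexpression library lay below every vector library, as was so for 15.6% of all tested rows. The unscaled log2 difference of -0.15 (95% interval -0.29 to 0.00) missed the threshold (limma adjusted p = 0.0948). JAG1 was called lower with median centring, at -0.35 log2 (limma adjusted p = 0.00535). Quantile normalization gave -0.97 (limma adjusted p = 0.000365), and the length and GC correction gave -0.30 (0.00867).

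The joined row NUDT14;JAG2 measured 8.17, 8.30 and 8.96 FPKM in the vector libraries, against 6.17, 6.12 and 8.0 FPKM with overexpression. Its groups did not overlap either, and the third overexpression library came closest to the vector values. They differed by -0.31 log2 (95% interval -0.61 to -0.02, limma adjusted p = 0.0763). Without that library it was -0.43 and was called (limma adjusted p = 0.0302). It was also called lower with median centring, at -0.52 (0.0145), and with quantile normalization, at -0.59 (0.00948).

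DLL1 was low in all 6 libraries, at 0.60, 0.89 and 0.58 FPKM with the vector and 0.59, 1.02 and 1.45 FPKM with overexpression. Its groups overlapped (exact two-sided permutation test on log2(FPKM + 0.5), p = 0.30, where 3 against 3 libraries allow no p below 0.10). In GENCODE 29 the DLL1 gene overlaps FAM120B on the opposite strand. Whether the counting used strand is not given in the sources used here, so reads of the pair cannot be told apart. The same limit holds for NOTCH1 and JAG1, which each overlap an antisense gene on the opposite strand. JAG2 overlaps a processed transcript on its own strand. FAM120B, a coactivator gene named after its values were seen, fell from 7.76 ± 0.101 to 4.18 ± 0.216 FPKM (SD, n = 3; limma adjusted p = 0.00067).

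JAG1 took 92.4% to 94.4% of the summed FPKM of JAG1, the joined row of JAG2, DLL1, DLL3 and DLL4 in each of the 6 libraries. The sum was 140 ± 1.71 FPKM in the vector and 126 ± 7.34 FPKM in the overexpression libraries (SD, n = 3). DLL3, a ligand that acts within the cell, measured 0.54, 0.28 and 0.52 FPKM with the vector and 0.19, 0.23 and 0.12 FPKM with overexpression. It lay below the filter and its groups did not overlap, as in 13.4% of rows below the filter with a value above 0 that were lower. In the fit with no filter, 35.3% of rows were called in either direction and 1406 of 14518 lower. There the limma adjusted p of DLL3 was 0.0416. DNER, a noncanonical ligand known from neurons, rose from 0.867 ± 0.191 to 2.94 ± 0.531 FPKM (SD, n = 3), by 1.33 log2 (1.06 relative to the median row, limma adjusted p = 0.00118). DNER passed the filter of 1 FPKM only through its overexpression values. DLK2, a Delta-like protein without the usual receptor-binding domain, was the other tested gene of this list and was not called (1.42 ± 0.371 and 1.32 ± 0.456 FPKM, SD, n = 3, limma adjusted p = 0.774).

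Genes of receptor processing were expressed at levels from 1.38 to 23.8 FPKM in group means, and 4 of 9 were called higher and 0 lower (44.4% and 0%, against 37.4% and 11.9% of all tested rows). With median centring 3 were called higher and 1 lower (33.3% and 11.1%, against 24.0% and 19.2% of all rows). FURIN, which cuts the receptor precursor in the Golgi, rose from 2.71 ± 0.332 to 6.04 ± 0.415 FPKM (SD, n = 3; 0.77 log2 relative to the median row, limma adjusted p = 0.000771). The joined row PSENEN;LIN37, with a gamma-secretase subunit, rose by 0.56 log2 relative to the median row, and APH1A by 0.32. The APH1A call was lost with median centring (limma adjusted p = 0.0777) and with the length and GC correction (0.459). The ligand-triggered protease ADAM10 measured 17.8 ± 0.612 and 16.3 ± 2.13 FPKM (SD, n = 3) and was not called, nor were ADAM17, NCSTN, PSEN2 and APH1B. Under other scalings some were called lower, ADAM10 with median centring (limma adjusted p = 0.0343) and quantile normalization (0.00522), NCSTN with quantile normalization (0.0437) and PSEN2 with the length and GC correction (0.0138).

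Of 5 tested sugar-adding enzymes of the receptor, 1 was called higher and 2 lower on the unscaled values (20% and 40%, against 37.4% and 11.9% of all tested rows). Each of the 3 other scalings called 0 higher, with 3 lower after median centring and 2 lower in the others. EOGT, which adds N-acetylglucosamine to the extracellular repeats, fell from 5.75 ± 0.162 to 3.24 ± 0.537 FPKM (SD, n = 3), a log2 difference of -0.75 (-1.01 relative, limma adjusted p = 0.00352). POFUT1, which adds the fucose that Fringe enzymes extend, stood at 16.2 ± 0.864 and 13.6 ± 0.514 FPKM (SD, n = 3), a log2 difference of -0.25 with a limma adjusted p of 0.0445. Its call was lost when any single library was left out, with adjusted p-values of 0.0610 to 0.116. POFUT1 was called lower under each of the 3 other scalings. The log2 difference was -0.46 after median centring (limma adjusted p = 0.00537) and -0.66 after quantile normalization (0.00192). Removal of length and GC effects gave -0.42 (0.00694). Of 17 alternative settings, 8 kept the POFUT1 call and 9 lost it. RFNG, a Fringe enzyme, was called higher at 0.66 log2 (limma adjusted p = 0.0367), but not with median centring (0.120) or without any 1 of the overexpression libraries (0.0558 to 0.108). Of 11 tested genes of endocytosis and turnover only DTX3L, a Deltex-type ubiquitin ligase, was called on the unscaled values. It was higher by 0.31 log2 relative to the median row (limma adjusted p = 0.00573). That made 9.09% higher and 0% lower, against 37.4% and 11.9% of all tested rows. Median centring called 1 higher and 2 lower, and quantile normalization 1 higher and 4 lower. The length and GC correction called 2 of 10 higher and 2 lower. In that order of scalings 9.09%, 9.09% and 20% were higher, against 24.0%, 19.2% and 22.5% of all rows. The shares lower were 18.2%, 36.4% and 20%, against 19.2%, 20.9% and 17.1% of all rows. The inhibitor NUMB measured 6.61 ± 0.521 and 5.32 ± 0.805 FPKM (SD, n = 3) and was not called on the unscaled values. It was called lower with median centring (limma adjusted p = 0.0173), after quantile normalization (0.0171) and after the length and GC correction (0.0362).

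RBPJ, the DNA-binding partner of the receptor's intracellular domain, was low with the vector and higher with overexpression. It measured 1.74, 1.03 and 1.74 FPKM in the vector libraries and 6.04, 4.09 and 3.04 FPKM in the overexpression libraries. The lowest overexpression value lay above the highest vector value, and the overexpression libraries spread over a wider range. On the log2 scale it differed by 1.26 ± 0.26 (SE; 95% interval 0.64 to 1.88), or 1.0 relative to the median row (limma adjusted p = 0.00737), the 477th largest rise of 9694. GENCODE 29 lists 4 processed pseudogenes of RBPJ, with which reads could be shared, so the level is uncertain.

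Coactivators did not follow one direction. Of 6 tested, 2 were called higher and 1 lower (33.3% and 16.7%, against 37.4% and 11.9% of all tested rows). Median centring called 1 higher and 1 lower (16.7% each, against 24.0% and 19.2% of all rows). MAML1, the Mastermind protein that binds the complex of RBPJ and the intracellular domain, fell from 5.67 ± 0.486 to 2.37 ± 0.235 FPKM (SD, n = 3). The log2 difference was -1.10 (-1.37 relative, limma adjusted p = 0.000585), and its paralogues MAML2 and MAML3 did not exceed 0.40 FPKM in any library. SNW1, a protein of both the spliceosome and the RBPJ complex, rose from 12.3 ± 1.08 to 27.4 ± 0.261 FPKM (SD, n = 3; 0.87 relative, limma adjusted p = 0.000201). The joined row RAB5C;KAT2A;AC099811, which holds an acetyltransferase gene, was called higher (limma adjusted p = 0.0324), but not with median centring (0.103), nor without vector replicate 2 or 3 or overexpression replicate 1 or 3 (0.0536 to 0.0967). The acetyltransferase genes EP300 and CREBBP were not called, at 8.44 ± 0.330 and 9.02 ± 0.295 FPKM for EP300 and 3.22 ± 0.490 and 3.25 ± 0.128 FPKM for CREBBP (SD, n = 3).

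Of 15 tested corepressor genes 5 were called higher and 1 lower (33.3% and 6.67%, against 37.4% and 11.9% of all tested rows). With median centring 3 were called higher and 1 lower (20% and 6.67%, against 24.0% and 19.2% of all rows). Among those higher on the unscaled values were AES, TLE2, TLE3 and CIR1. The TLE3 and CIR1 calls were lost with median centring (limma adjusted p = 0.0775 and 0.103) and the length and GC correction (0.0631 and 0.0972). With quantile normalization TLE3 was called (0.0423) and CIR1 was not (0.0748). TLE3 averaged 0.823 FPKM with the vector and 1.58 FPKM with overexpression, and passed the filter only through the latter. AES, a short Groucho-type protein, rose from 6.72 ± 0.425 to 16.5 ± 0.247 FPKM (SD, n = 3; 0.97 relative, limma adjusted p = 0.000155). TLE2, a Groucho corepressor recruited by HES proteins, rose from 1.93 ± 0.438 to 5.12 ± 0.435 FPKM (SD, n = 3; 0.96 relative, limma adjusted p = 0.00126). CTBP1, a corepressor of HES and RBPJ complexes, was called lower at -0.39 log2 (limma adjusted p = 0.0228). That call was lost without vector replicate 1 (0.0598), overexpression replicate 1 (0.0536) or overexpression replicate 3 (0.0844). CTBP1 was called lower under each of the 3 other scalings. The log2 difference was -0.60 after median centring (limma adjusted p = 0.00517) and -0.61 after quantile normalization (0.00543). Removal of length and GC effects gave -0.71 (0.00240). Of 17 alternative settings, 12 kept the CTBP1 call and 5 lost it.

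**Figure D3:**
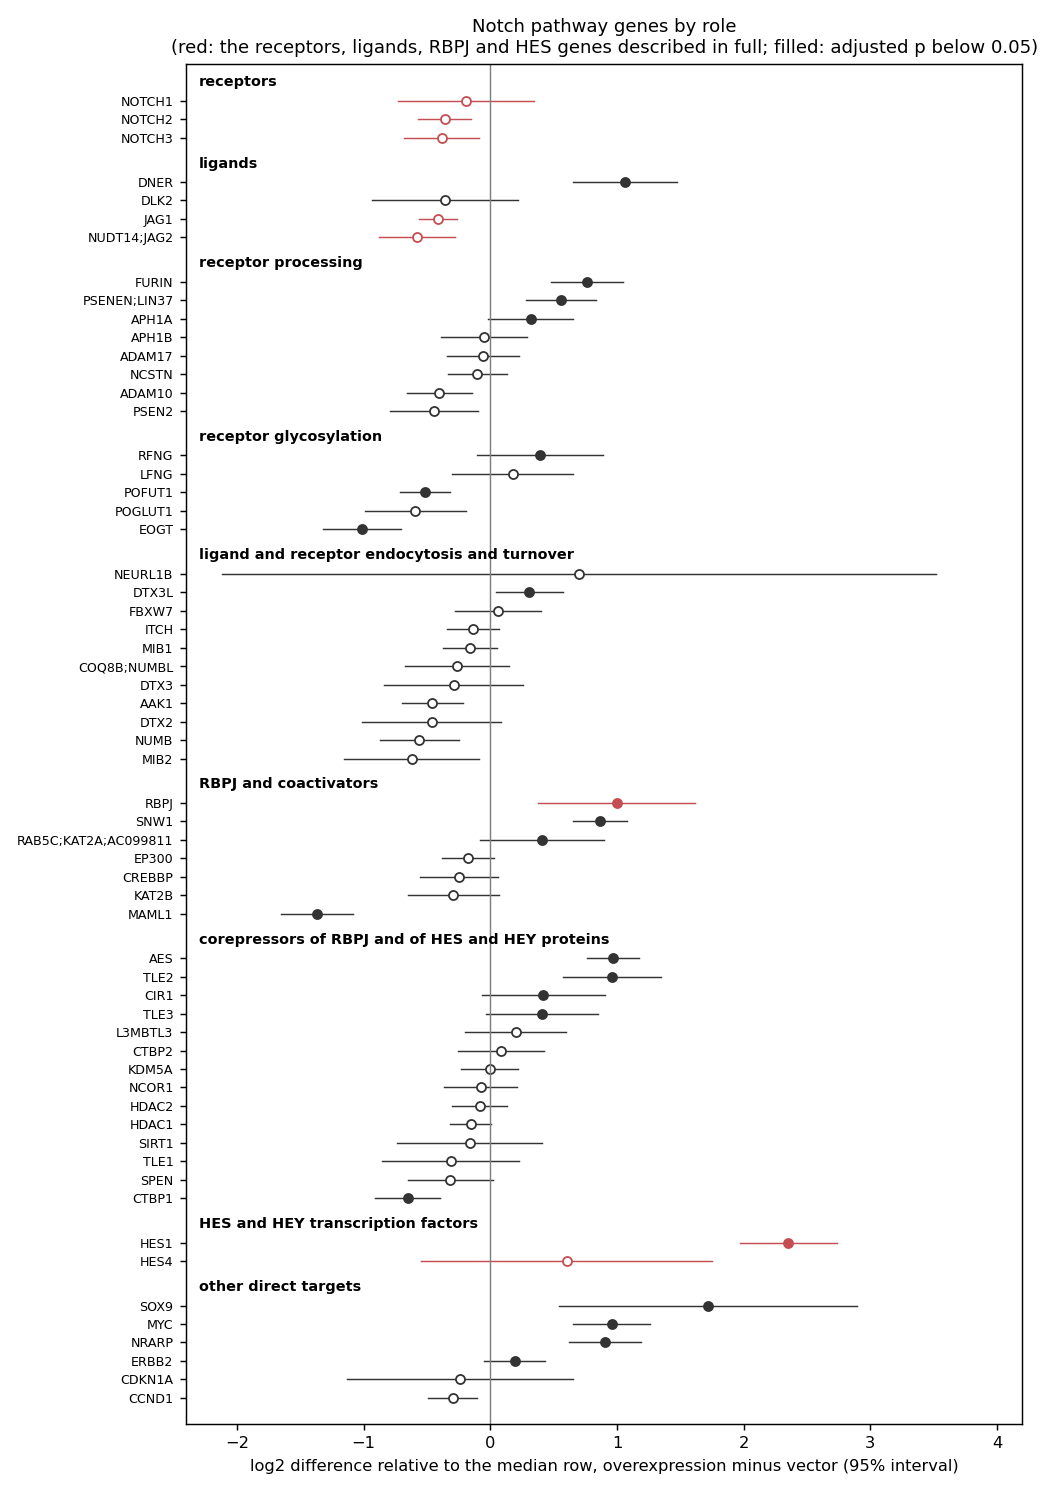
Log2 difference relative to the median tested row, with its 95% limma interval that treats the median as fixed, for tested Notch pathway genes grouped by role; filled points passed the test on the unscaled values. HES1 lies farthest to the right at 2.35, MAML1 farthest to the left at -1.37, and the NEURL1B interval is the widest.

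HES1 had the largest difference of the 10 genes, and the promoters of HES1, HES4 and RBPJ are shown first because they are the ones among these genes that hold the core of the RBPJ site. RefSeq promoter windows of 300 bases (250 before and 50 after a transcript start, GRCh38.p14) were matched for 8 of the 10 genes, all but DLL1 and HEY1. TGGGAA, the core of the RBPJ site, was searched on both strands. It was found in 3 of these 8 genes, or 3 of their 12 windows (RBPJ has 5), against 24.0% of all 35116 windows. The longer form GTGGGAA, which contains it, was found in the same 3 genes and 3 windows, against 6.25% of all windows. The 180 bases before the start are given below 5′ to 3′ in the direction of transcription, with TGGGAA or its complement TTCCCA in capitals. The build differs from the hg19 of the expression values, so these positions are not coordinates of the expression table.
HES1, chr3:194135968-194136147, plus strand: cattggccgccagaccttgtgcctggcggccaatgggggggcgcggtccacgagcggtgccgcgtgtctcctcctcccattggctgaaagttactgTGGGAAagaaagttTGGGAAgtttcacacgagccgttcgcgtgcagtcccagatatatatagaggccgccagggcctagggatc
HES4, chr1:1000098-1000277, minus strand: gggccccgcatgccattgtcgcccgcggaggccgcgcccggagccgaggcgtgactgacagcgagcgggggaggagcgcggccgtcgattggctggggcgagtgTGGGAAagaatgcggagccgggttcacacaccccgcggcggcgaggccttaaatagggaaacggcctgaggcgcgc
RBPJ, chr4:26319566-26319745, plus strand: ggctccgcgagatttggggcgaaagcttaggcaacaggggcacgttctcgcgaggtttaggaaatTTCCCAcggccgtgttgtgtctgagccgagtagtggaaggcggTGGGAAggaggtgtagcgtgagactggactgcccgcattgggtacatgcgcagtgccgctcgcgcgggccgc

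HES1 holds TGGGAA at positions -84 and -70 from the start, 14 bases apart on the same strand, and HES4 holds it at -76. In RBPJ, 1 of 5 windows holds it, at -115 on the opposite strand and at -72. Windows with 2 or more matches made up 3.80% of all. CACNAG, the N box bound by HES proteins, was found in 5 of the 12 windows, against 38.0% of all windows. Those 5 belong to HES1, with 4 matches, and to NOTCH1, NOTCH2, NOTCH3 and RBPJ, and none was found for HES4, JAG1 or JAG2. A match to these letters is a description of the sequence and not evidence of binding.

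HES1, the repressor that serves as the usual readout of Notch signalling, measured 0.90, 1.23 and 1.16 FPKM in the vector libraries. In the overexpression libraries it measured 7.59, 10.81 and 9.68 FPKM. Every overexpression value lay well above every vector value. The difference was 2.62 ± 0.16 log2 (SE; 95% interval 2.24 to 3.0), or 2.35 relative to the median row (limma adjusted p = 0.000116). It was the 21st largest rise of 9694 tested rows. By level HES1 moved from place 9368 to place 2836 of all 18268 rows.

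HES4, whose promoter shares the motif, did not pass the test. With the vector it stood at 0, 1.27 and 1.17 FPKM, and with overexpression at 1.27, 1.48 and 2.06 FPKM. Its vector mean lay below 1 FPKM, so it passed the filter only through its overexpression values. The lowest overexpression value equalled the highest vector value, and the first vector library, listed at 0, set much of the difference. The log2 difference was 0.87 (95% interval -0.28 to 2.02, limma adjusted p = 0.178). It became 0.27 without that library and -0.10 with the length and GC correction.

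HEY1, a target of Notch in vessels and heart, was low in every library, at 0.21, 0.12 and 0.40 FPKM with the vector and 0.21, 0.15 and 0.24 FPKM with overexpression. These ranges overlapped (exact two-sided permutation test, p = 0.90, smallest possible 0.10).

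**Figure D4:**
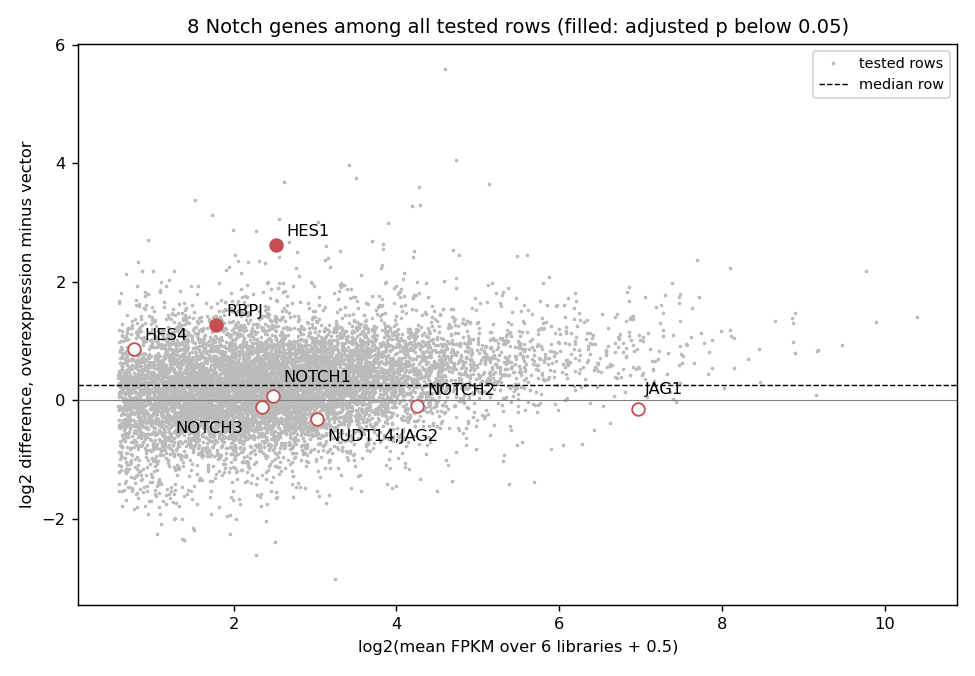
Each tested row by its mean level (x axis, log2(mean FPKM + 0.5)) and its log2 difference between overexpression and vector libraries (y axis), with the 8 tested genes in red, filled where called. HES1 at 2.62 and RBPJ at 1.26 lie above the median row at 0.27, while JAG1 and NOTCH2 lie below it among the more abundant rows.

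The other HES and HEY genes were low, and none of the 8 outside the set passed the filter. HES3, HES5 and HELT were listed at 0 in all 6 libraries. HES7, known from the segmentation clock, measured 0.50, 0.23 and 0.39 FPKM with the vector and 1.09, 1.83 and 1.67 FPKM with overexpression. HES2 measured 0.26, 0.41 and 0.22 FPKM, against 0.97, 0.62 and 0.70 FPKM. HES6, which antagonises HES1, measured 0.56, 0.15 and 0.43 FPKM, against 1.37, 0.89 and 1.10 FPKM. All 3 were higher in every overexpression library than in any vector library, as were 12.2% of rows below the filter with a value above 0. In the fit with no filter their limma adjusted p-values were 0.00510 for HES7, 0.0169 for HES2 and 0.0202 for HES6, where 25.7% of 14518 rows were called higher. The other genes of this list with a value above 0, HEY2 and HEYL, did not rise in this way. HEY2 measured 0, 0.15 and 0.23 FPKM with the vector and 0.05, 0.21 and 0.11 FPKM with overexpression. HEYL was listed at 0.09, 0 and 0 FPKM with the vector and at 0 in every overexpression library.

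**Figure D5:**
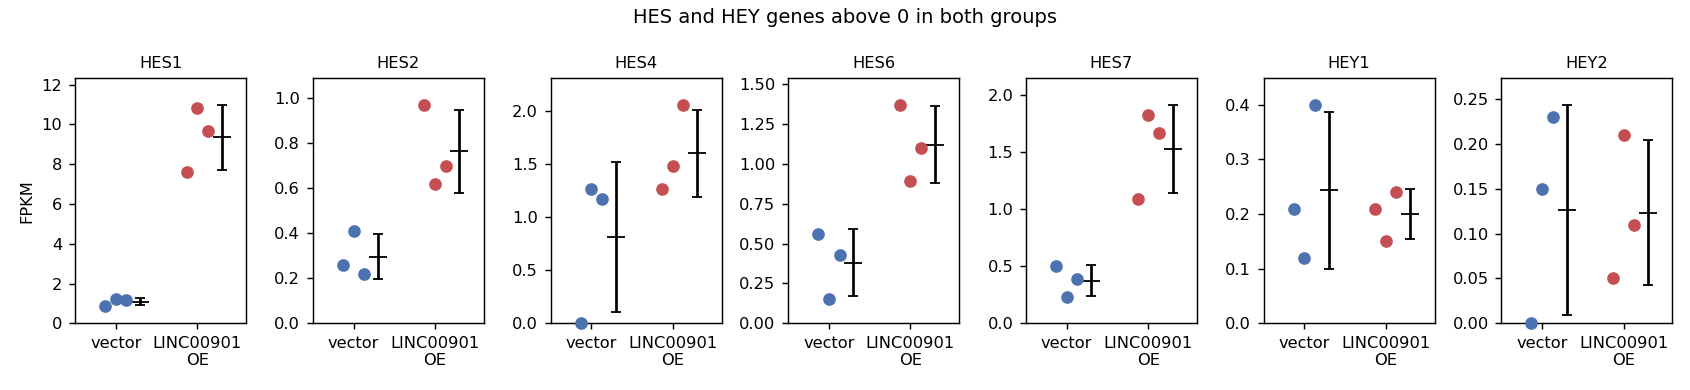
FPKM of the HES and HEY genes that had a value above 0 in both groups, by library, vector in blue and LINC00901 overexpression in red, each panel on its own linear axis from 0; bars give mean and SD (n = 3). HES1, HES2, HES6 and HES7 do not overlap between groups, whereas HES4, with 1 vector library at 0, HEY1 and HEY2 do.

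Of 6 tested genes among other known targets, 4 were called higher and 0 lower (66.7% and 0%, against 37.4% and 11.9% of all tested rows). Median centring called 3 higher and 1 lower (50% and 16.7%, against 24.0% and 19.2% of all rows). Quantile normalization called 2 higher and 1 lower (33.3% and 16.7%, against 19.2% and 20.9%). NRARP, which encodes a small feedback inhibitor of the Notch complex, was among those called higher. It measured 4.82, 4.60 and 4.99 FPKM in the vector libraries and 10.12, 13.24 and 11.14 FPKM in the overexpression libraries, with no overlap. The log2 difference was 1.17 (0.91 relative, limma adjusted p = 0.000478), and 0.46 with the length and GC correction (0.00601). The NRARP promoter window held no TGGGAA. SOX9, a ductal transcription factor, varied among the vector libraries at 15.85, 8.19 and 3.08 FPKM, below 30.80, 27.53 and 35.48 FPKM in the others (1.72 relative, limma adjusted p = 0.0155). Its call was lost with quantile normalization (0.0530). The oncogene MYC, also a target of many other pathways, rose by 0.96 log2 relative to the median row (limma adjusted p = 0.000514). ERBB2, a receptor kinase gene, was called higher (limma adjusted p = 0.00968), but not with median centring (0.0914). CCND1 and CDKN1A, cell cycle genes, were not called on the unscaled values, at 14.8 ± 0.850 and 14.4 ± 0.2 FPKM for CCND1 and 2.66 ± 0.576 and 2.97 ± 1.52 FPKM for CDKN1A (SD, n = 3). CCND1 was called lower with median centring (limma adjusted p = 0.0446) and quantile normalization (0.00649). IL2RA and PTCRA, targets known from T cells, were listed at 0 in all 6 libraries.

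Over all roles, 77 other pathway genes had a row and 54 were tested, of which 18 were called higher (33.3%) and 4 lower (7.41%). Those called higher include DNER and TLE3, which passed the filter only through their overexpression values. The shares over all tested rows were 37.4% and 11.9%. With median centring 12 were called higher and 9 lower (22.2% and 16.7%), against 24.0% and 19.2% of all rows. The median log2 difference of the 54 was 0.19 on the unscaled values, against 0.27 for all tested rows.

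Ratios of genes within a library do not change when a library is multiplied by a factor, and 6 of them could be formed. HES1 to RBPJ averaged 0.744 with the vector and 2.20 with overexpression as geometric means of FPKM ratios, a log2 difference of 1.56 ± 0.54 (SE), with no overlap between groups. HES1 to HEY1 differed by 3.23 ± 0.62 log2 (SE), also without overlap. Each of these had the smallest exact two-sided permutation p that 3 against 3 libraries allow, 0.10, and an adjusted p of 0.30 over the 6 ratios. HEY1 did not exceed 0.40 FPKM, and the HES1 to HEY1 difference was 2.69 log2 with 0.5 FPKM added to each value. NOTCH1 to NOTCH2 differed by 0.17 ± 0.27 and NOTCH3 to NOTCH2 by -0.04 ± 0.17 log2 (SE), with overlapping groups (exact permutation p = 0.70 and 0.80). JAG1 to the row of JAG2 differed by 0.19 ± 0.14 (exact permutation p = 0.30), and DLL1 to JAG1 by 0.64 ± 0.40 (exact permutation p = 0.20). DLL1 lay below the filter, and its difference was 0.47 log2 with 0.5 FPKM added to each value. HES1 to HES4 had no ratio because a vector library was listed at 0 for HES4.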

How the data were processed

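RNA of 6 MIA PaCa-2 libraries (3 vector, 3 LINC00901 overexpression) was analysed from FPKM values that the authors deposited, given to 2 decimals for each gene row. The submitters' processing notes name HISAT2, cutadapt and FastQC and the build hg19. Neither versions nor the program behind the FPKM is given in the sources used here. Of 18268 rows, 3750 are listed at 0 in all 6 libraries, among them all 13 mitochondrially encoded rows, so a 0 can be a failed estimate. Among low values, 15.8% of ratios in vector and 14.3% in overexpression libraries came within 0.1 log2 of a power of 2. That check misses other ratios of whole reads, so it cannot decide whether the values move in whole-read steps. No counts were recovered and no counting interval is given.

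The fit used limma 3.58.1 (R 4.3.3) with trend and no replicate block on log2(FPKM + 0.5) for rows averaging 1 FPKM or more. It was also run on simulated data with few shifted rows and no general shift, so that run did not cover data like these. Single values were compared with exact permutation tests in scipy 1.17.1. Alternatives were pseudocounts of 1 and 0.1, a filter of 5 FPKM or none, median centring, quantile normalization, removal of a spline trend on length and GC content (GENCODE 29, known for 91.1% of tested rows) with median centring, the replicate block, leaving out each library, limma without trend or with robust estimation, and an adjusted p of 0.01. Protein identities were planned but not computed, since no protein sequences were used here.

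The genes, the pathway lists and the tests were chosen with earlier results of these data known. Named pathway genes are, in each role list, the 4 called genes (or fewer) with the largest absolute change relative to the median row. Others named are said to be so where they were chosen after their values were seen, and the rest illustrate a role or lie below the filter. Some genes of these lists are counted but not reported by name here.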

Additional observations from a re-analysis of the deposited data

How the results depend on the processing

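HES1 kept its direction and call in all 17 alternatives (2.11 to 2.98 log2, limma adjusted p 0.000105 to 0.00118) and RBPJ in all 16 that tested it (1.03 to 1.47, 0.00720 to 0.0246). With a mean of at least 5 FPKM RBPJ was not tested, which left 1 gene of the set, HES1, called higher. HES1 averaged 1.10 FPKM with the vector, 9.36 with overexpression and 5.23 over the 6 libraries. It therefore passed that filter only through its overexpression values, so that setting is not separate support. The set had 3 genes called lower with median centring, 3 with quantile normalization and 2 with the length and GC correction, against 0 unscaled. Of all tested rows 19.2%, 20.9% and 17.1% were called lower under these settings, against 11.9% unscaled. Leaving out 1 library gave 2 higher in each case and 0 to 1 lower. The NOTCH1 difference turned negative with median centring (-0.14), quantile normalization (-0.14), the length and GC correction (-0.17), and without vector replicate 1 (-0.07) or overexpression replicate 3 (-0.15, leave-one-out range -0.15 to 0.24). That of HES4 turned to -0.10 with the length and GC correction.

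Of all rows, 3621 were called higher and 1152 lower. The counts were 2331 and 1866 with median centring, 1865 and 2024 with quantile normalization, 2396 and 422 with a mean of at least 5 FPKM and 2287 and 594 at an adjusted p of 0.01. Removal of length and GC effects called 1987 higher. Leaving out 1 library gave 2768 to 3371 higher and 812 to 1004 lower. Of other pathway genes 18 were higher and 4 lower. The number lower was 9 with median centring, 12 with quantile normalization, 8 after removal of length and GC effects, 2 with the replicate block and 2 at an adjusted p of 0.01. The first 3 of these were 16.7%, 22.2% and 15.7% of those tested, against 19.2%, 20.9% and 17.1% of all rows. With a mean of at least 5 FPKM 11 other pathway genes were higher and 2 lower. Leaving out 1 library gave 15 to 19 higher and 2 to 4 lower, with 2 lower without vector replicate 1 or without overexpression replicate 3. Same-numbered libraries did not deviate together (correlations -0.04, -0.01 and -0.01), and no library correlated best with its own number. The replicate block called 3262 rows higher and 965 lower and changed no call among the 10 genes. Depth is unknown, so what it limits could not be given.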

Other observations

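DLK1, a Delta-like protein of endocrine and fetal cells, measured 0.90, 0.76 and 0.83 FPKM in the vector libraries and 0.44, 0.53 and 0.36 FPKM in the overexpression libraries. DLK1 lay below the filter and was lower in every overexpression library than in any vector library, as were 13.4% of rows below the filter with a value above 0. In the fit with no filter, 35.3% of rows were called in either direction and 1406 of 14518 lower. There the limma adjusted p of DLK1 was 0.0199.

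NEURL1B, a ubiquitin ligase for Notch ligands, took high or low values in both groups. It measured 7.81, 0.37 and 0.57 FPKM in the vector libraries and 7.91, 8.29 and 0.28 FPKM in the overexpression libraries (limma adjusted p = 0.527). ISG15, an interferon-induced gene that neighbours HES4 on chromosome 1, rose from 6.14 ± 0.494 to 26.9 ± 0.513 FPKM (SD, n = 3; limma adjusted p = 3.99e-05), while HES4 was not called. These genes were named after their values were seen.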
